A study of Mus musculus with 10 samples.

Results

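Genes for 10 integrin subunits, the transmembrane receptors that hold cells to extracellular matrix and to each other, were followed in germ cells made in vitro, in the embryonic stem cells (ESCs) they came from and in somatic cells of the same cultures. The 10 genes were *Itgb3*, *Itgav*, *Itga2b*, *Itgb1*, *Itgb5*, *Itga5*, *Itga6*, *Itga3*, *Itgb7* and *Itga9*. They were chosen by name, with earlier results of these data known, and matched through the symbols of the array's annotation. They were 10 of 18193 genes with a probe set of 1 symbol, and they had 31 of the 45037 probe sets of the array that are not controls. A filter on low signals left 25 of the 31 probe sets and 9 of the 10 genes for testing, out of 12208 genes tested. *Itga2b* did not pass the filter.

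RNA was measured on 10 Affymetrix mouse arrays, 2 for each of 5 sorted populations, to profile in vitro-derived primordial germ cells (iPGCs) beside ESCs and somatic cells. The V6.5 line has the genetic background 129xBL6 F1 and carries no reporter, and the Oct4-gfp line has a mixed background and carries a green reporter for *Pou5f1*. ESCs were V6.5 cells only, cultured on mouse embryonic fibroblasts and sorted as positive for SSEA1 and cKit. iPGCs were sorted on the sixth day of embryoid body differentiation in hanging drops without LIF. In V6.5 the sort took SSEA1+ and cKit bright cells, and in Oct4-Gfp it took reporter positive and cKit bright cells. Somatic cells came from embryoid bodies of the same day and were negative for cKit and for SSEA1 (V6.5) or for the reporter (Oct4-Gfp). All populations were dissociated with trypsin before sorting. Line and sorting marker changed together in the Oct4-Gfp populations and cannot be told apart. Comparisons of pooled iPGCs with ESCs set arrays of both lines against V6.5 alone. Nothing in the labels says that the 2 arrays of a population came from separate cultures, so p-values measure only the spread between these arrays, which may be technical.

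Signals are MAS5 intensities on a linear scale, and differences are given on the scale of log2 of the signal plus 14.8. A gene was called at a Benjamini-Hochberg adjusted p under 0.05 from 1 limma model of the 5 populations, adjusted over all 26372 probe sets tested. Background was the 95th percentile of 44 olfactory receptor probe sets and lay between 12.6 and 25.4 per array. A gene with several probe sets is described by the tested one with the highest mean signal, and the others follow where they differ. Probe sets differ in brightness, so signals of different genes are not ranked by level. Sums and ratios over genes are read only between populations. The labels fit their defining markers. By mean over the arrays of ESCs, iPGCs and somatic cells in turn, *Pou5f1* read 5920 ± 827, 3148 ± 599 and 62.6 ± 40.2 (SD, n = 2, 4 and 4), and the heart field gene *Tbx20* averaged 32.2, 422 and 6560 in the same order. *Dppa3*, a gene of the germ line and of ESCs, averaged 3671, 6902 and 82.6. The *Gapdh* ratio of 3′ to 5′ signal, a measure of RNA integrity and amplification, was 1.28 and 1.30 for ESCs, between 1.51 and 2.37 for iPGCs and between 1.65 and 2.05 for the somatic arrays.

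Integrins are obligate pairs of 1 alpha and 1 beta subunit, and a subunit without its partner does not reach the cell surface in a functional form. The beta subunit encoded by *Itgb3* pairs with the alpha subunits of *Itgav*, giving a receptor for vitronectin and fibronectin, or of *Itga2b*, giving the fibrinogen receptor of platelets and megakaryocytes. The beta subunit of *Itgb1* pairs with many alpha subunits, among them those of *Itga5* (fibronectin), *Itga3* and *Itga6* (laminins) and *Itga9* (tenascin and other ligands). Integrin beta 3 on the cell surface is used, together with SSEA1, to sort germ cells made from stem cells, and beta 1 integrins are known to act in the migration of primordial germ cells in the embryo.

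The genes lie apart in the mouse genome (GRCm38.p6). *Itgb3* is at chr11:104608000-104670476 and *Itga2b* at chr11:102453297-102469883 on the same chromosome, and *Itgav* is at chr2:83722303-83806917 and *Itga6* at chr2:71786886-71858427. *Itgb1* is at chr8:128685654-128733579 and *Itgb5* at chr16:33829665-33949338. RefSeq promoter sequences of 300 bases, 250 before the start of transcription and 50 after it, were at hand for 8 of the 10 genes, *Itgb3* and *Itga6* not among them. The sequences of 4 are shown. *Itgav* encodes the alpha partner of *Itgb3*, and *Itgb1*, *Itgb5* and *Itga5* were all called lower in iPGCs against somatic cells. Each is read along its gene's strand, 5′ to 3′, with the GC box GGGCGG, searched on both strands, in capitals.
Itgav, chr2:83724147-83724446, plus strand: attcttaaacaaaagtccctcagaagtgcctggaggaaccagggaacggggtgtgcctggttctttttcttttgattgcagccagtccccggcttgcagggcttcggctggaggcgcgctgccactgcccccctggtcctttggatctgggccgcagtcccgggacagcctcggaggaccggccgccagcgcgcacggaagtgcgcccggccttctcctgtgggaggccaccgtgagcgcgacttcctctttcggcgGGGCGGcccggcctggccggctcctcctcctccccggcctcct
Itgb1, chr8:128685404-128685703, plus strand: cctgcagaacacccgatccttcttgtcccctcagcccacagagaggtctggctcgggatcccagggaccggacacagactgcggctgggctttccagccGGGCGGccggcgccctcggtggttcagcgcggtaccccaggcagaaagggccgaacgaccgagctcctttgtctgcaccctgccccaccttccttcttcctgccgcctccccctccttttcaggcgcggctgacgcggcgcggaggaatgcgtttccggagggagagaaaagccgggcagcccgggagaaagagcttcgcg
Itgb5, chr16:33829415-33829714, plus strand: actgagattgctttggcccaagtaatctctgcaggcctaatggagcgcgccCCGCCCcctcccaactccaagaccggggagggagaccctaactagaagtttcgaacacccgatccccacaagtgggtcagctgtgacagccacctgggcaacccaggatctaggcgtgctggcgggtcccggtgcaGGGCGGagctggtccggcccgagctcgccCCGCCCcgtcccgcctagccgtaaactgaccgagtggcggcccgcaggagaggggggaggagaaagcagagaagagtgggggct
Itga5, chr15:103366742-103367041, minus strand: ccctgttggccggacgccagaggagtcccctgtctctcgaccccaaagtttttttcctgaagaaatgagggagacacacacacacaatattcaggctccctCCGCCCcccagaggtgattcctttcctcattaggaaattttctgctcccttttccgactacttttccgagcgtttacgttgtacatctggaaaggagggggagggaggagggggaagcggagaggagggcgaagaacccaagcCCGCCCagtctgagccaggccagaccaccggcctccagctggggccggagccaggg
The GC box stood once in the windows of *Itgav* and *Itgb1*, 2 times in that of *Itga5* and 3 times in that of *Itgb5*. It was found for 5 of the 8 genes, the fifth being *Itga3*, and not in the windows of *Itga2b*, *Itgb7* and *Itga9*. The windows of *Itgav*, *Itgb7* and *Itga9* lie inside their loci, so the outer starts of these loci were not searched. For *Itga9* the window is chr9:118711442-118711741, in a locus at chr9:118606709-118901003. Counted by window, with each window of *Itga3* taken apart, 6 of 9 held it, beside 35.7% of all 32851 promoters at hand. The G and C content was 67.3% for both *Itgav* and *Itgb1*, 65.7% for *Itgb5* and 58.7% for *Itga5*. These matches are a description of the letters and say nothing of binding in these cells.

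*Itgb3* was the member with the largest rise from ESCs to iPGCs among the 9 tested. Its signal was 70.2 and 41.3 on the ESC arrays, 560 and 412 for V6.5 iPGCs, 542 and 393 for Oct4-Gfp iPGCs, 421 and 249 in V6.5 somatic cells and 223 and 142 in Oct4-Gfp somatic cells. Every iPGC array lay above both ESC arrays, and iPGC and somatic arrays overlapped through 1 V6.5 somatic array. The iPGC mean was 8.56 times the ESC mean, a log2 difference of 2.82 ± 0.30 (SE, adjusted p = 0.000505, limma). Within V6.5 alone, where ESCs and iPGCs share the line, the difference was 2.84 ± 0.34 (adjusted p = 0.00158, limma). Somatic cells were also higher than ESCs, by 1.89 ± 0.30 (adjusted p = 0.000799, limma). The second *Itgb3* probe set ranged from 5.37 to 46.3 over the 10 arrays, around the background, and did not pass the filter. From the same arrays the paper had already reported *Itgb3* as enriched in iPGCs beside ESCs, so the rise over ESCs is not an independent result.

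The *Itgb3* excess of iPGCs over somatic cells was smaller and was called in 1 of the 2 lines. Over both lines it was 0.93 ± 0.24 (adjusted p = 0.0111, limma), a ratio of means of 1.84. In Oct4-Gfp it was 1.31 ± 0.34 (adjusted p = 0.0148, limma). In V6.5 it was 0.55 ± 0.34, with a 95% interval from −0.24 to 1.33, and was not called (adjusted p = 0.232, limma). The difference between the lines was 0.76 ± 0.48 (adjusted p = 0.581, limma), so the lines were not shown to differ. The Oct4-Gfp value lost its call without iPGC replicate 1 of that line (1.08, adjusted p = 0.0837, limma) and without somatic replicate 2 (1.00, adjusted p = 0.0866, limma). By population mean the order was V6.5 iPGCs (486 ± 105, SD, n = 2), Oct4-Gfp iPGCs (468 ± 105), V6.5 somatic cells (335 ± 122), Oct4-Gfp somatic cells (182 ± 57.7) and ESCs (55.7 ± 20.5). The first and second in that order differed by 0.05 on the log2 scale, the second being lower (adjusted p = 0.939, limma), while the ESC arrays stood below every other array.

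Of the 2 alpha partners of beta 3, *Itgav* was above background on all 10 arrays. Its signal was 1129 and 1122 in ESCs, 1776 and 1848 for V6.5 iPGCs, 2497 and 3280 for Oct4-Gfp iPGCs, 2603 and 2502 in V6.5 somatic cells and 3375 and 2831 in Oct4-Gfp somatic cells. The ESC arrays were the lowest, and iPGC and somatic arrays overlapped. The iPGC mean was 2.09 times the ESC mean, a log2 difference of 1.01 ± 0.14 (adjusted p = 0.00145, limma), and within V6.5 the difference was 0.68 ± 0.16 (adjusted p = 0.0201, limma). Against somatic cells *Itgav* in iPGCs differed by −0.30 ± 0.12 and was not called (95% interval −0.57 to −0.03, adjusted p = 0.0548, limma). This value lay close to the threshold and was called under 8 of 27 alternatives.

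The *Itgav* rise was carried by that probe set alone. A second tested probe set gave 331 and 352 in ESCs, 323 and 389 for V6.5 iPGCs, 176 and 191 for Oct4-Gfp iPGCs, 542 and 574 in V6.5 somatic cells and 353 and 297 in Oct4-Gfp somatic cells. Here the Oct4-Gfp iPGC arrays were the lowest, and iPGCs were called lower both against ESCs (−0.40, adjusted p = 0.0404, limma) and against somatic cells (−0.70, adjusted p = 0.000648, limma). The third differed from ESCs by −0.31 (adjusted p = 0.322, limma). The mean of the 3 tested probe sets differed by 0.10 between iPGCs and ESCs and was not called (adjusted p = 0.602, limma). With the *Gapdh* ratio as a covariate the probe set that rose kept a difference of 0.92 without a call (adjusted p = 0.147, limma). Where on the transcript each probe set lies was not analysed here. *Itgav* was thus measured in every iPGC array, and a rise over ESCs depended on the probe set used.

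*Itga2b*, the platelet partner, stayed near background in every population. Its only probe set gave 16.5 and 71.8 in ESCs, 23.2 and 14.3 for V6.5 iPGCs, 60.9 and 35.2 for Oct4-Gfp iPGCs, 30.9 and 40.9 in V6.5 somatic cells and 47.1 and 47.7 in Oct4-Gfp somatic cells. It exceeded its array's background on 2 of 2 ESC, 3 of 4 iPGC and 4 of 4 somatic arrays, and the 3 cell types overlapped. Fitted without the filter, iPGCs differed from ESCs by −0.20 ± 0.38 (95% interval −1.07 to 0.67, adjusted p = 0.764, limma). Of 6 other platelet genes, none of which passed the filter, *Gp6* and *Ppbp* were above background on no array and *Gp5* and *Pf4* on 1 of 4 iPGC arrays each. *Gp9* was above background on 4 of 4 iPGC, 2 of 4 somatic and 0 of 2 ESC arrays, at least 1.73-fold higher in iPGCs than in ESCs, and *Gp1bb* on 3 of 4 iPGC, 4 of 4 somatic and 2 of 2 ESC arrays. Of 14 megakaryocyte and blood genes listed, 12 had a probe set and 5 were tested. Between iPGCs and ESCs 0 of the 5 were called in either direction by limma, where 24.5% of all genes tested were higher and 21.0% lower. All 5 were lower in iPGCs than on the somatic arrays, where 29.8% of all genes tested were lower. The 12 summed to 155 to 178 on the ESC arrays, 155 to 212 on those of iPGCs and 890 to 2304 on the somatic ones.

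**Figure D1:**
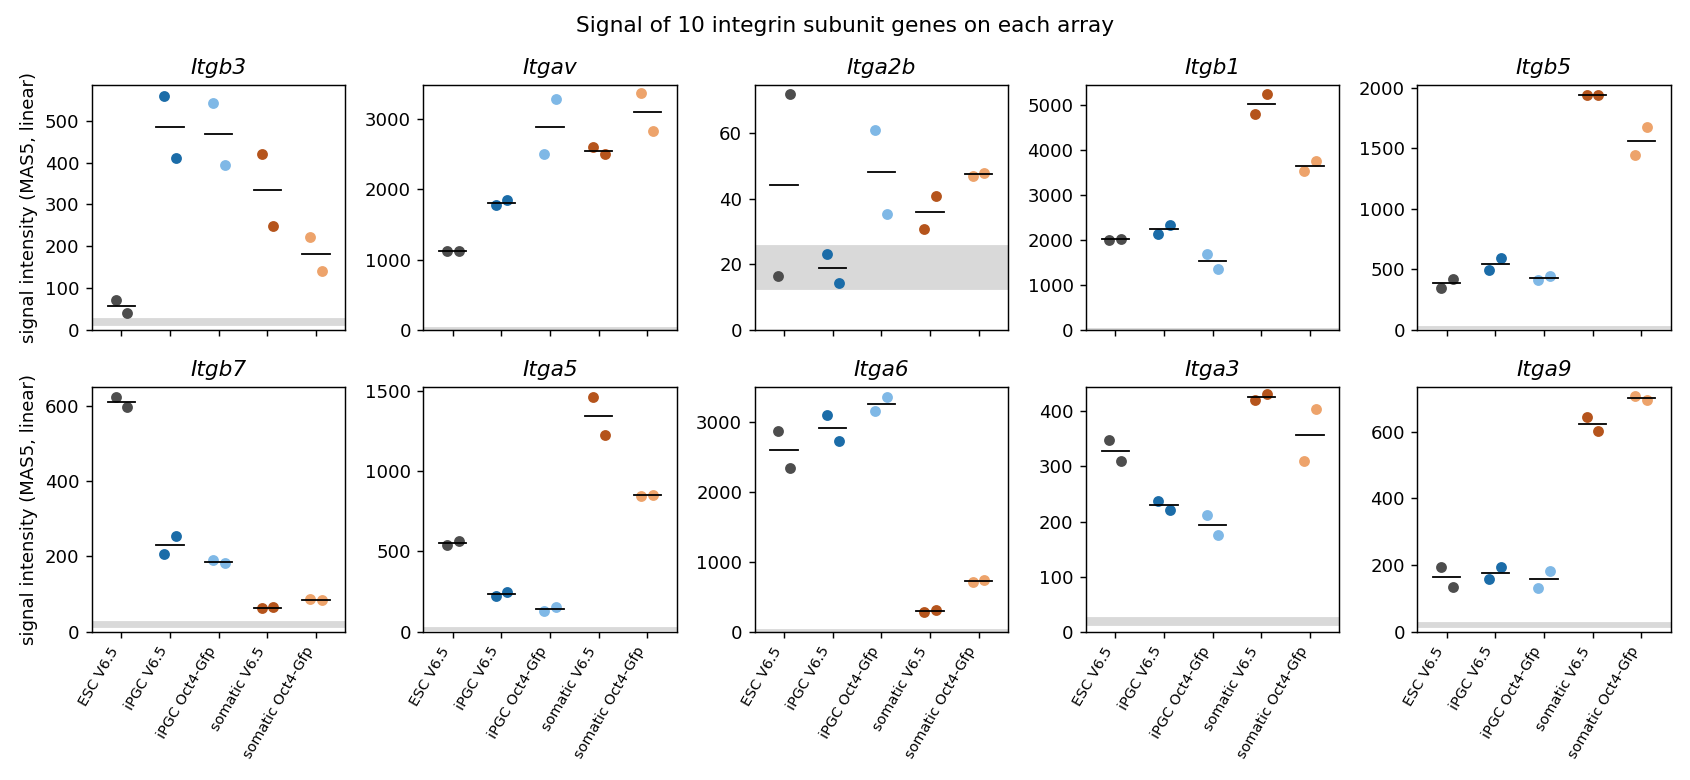
Signal intensity (MAS5, linear scale) of the 10 integrin subunit genes on each of the 10 arrays, 1 dot per array and a bar at the mean of each population, with the range of the array backgrounds (12.6 to 25.4) shaded in grey. *Itgb3* is 41.3 to 70.2 in ESCs and 393 to 560 in iPGCs, *Itga2b* lies around the background, and *Itga6* and *Itgb7* are lowest in somatic cells.

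Markers of other cell types moved beside the rise of *Itgb3* and of the brightest *Itgav* probe set. The 4 somatic mesoderm genes with a probe set (of 6 listed) summed to 164 to 193 on ESC arrays, 471 to 884 on iPGC arrays and 10786 to 12544 on somatic arrays. Of the 4, 2 (*Tbx20* and *Hand1*) were higher in iPGCs than in ESCs, where 24.5% of all genes tested were. All 7 endothelial genes listed had a probe set, and they summed to 633 to 645, 633 to 887 and 1831 to 2869. Of 4 tested, 2 were higher in iPGCs than in ESCs, beside the same 24.5% of all genes tested. With so few genes in each list, these counts are a description only. The part of these markers in the integrin differences was not tested. In sorted bulk samples, fewer cells of a type and less RNA per cell cannot be told apart.

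In the comparison of iPGCs with ESCs, 2 of 9 members were higher (*Itgb3* and *Itgav*) and 3 were lower (*Itga5*, *Itgb7* and *Itga3*), where 24.5% of all genes tested were higher and 21.0% lower. The median difference of the 9 was 0.03, beside 0.04 over all genes tested. In V6.5 alone 2 were higher and 2 lower (17.3% and 12.9% of all genes tested), the count higher falling to 1 without any 1 of the V6.5 ESC or iPGC arrays, when *Itgav* was not called.

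*Itga5*, the alpha subunit of the fibronectin receptor, had its lowest signals in iPGCs. It gave 539 and 564 in ESCs, 223 and 249 for V6.5 iPGCs, 130 and 155 for Oct4-Gfp iPGCs, 1459 and 1225 in V6.5 somatic cells and 844 and 853 in Oct4-Gfp somatic cells. The 3 cell types did not overlap, with iPGCs below ESCs and ESCs below somatic cells. The ESC mean was 2.91 times the iPGC mean (log2 difference −1.51 ± 0.13, adjusted p = 0.000246, limma), and the somatic mean was 5.78 times the iPGC mean (−2.45 ± 0.10, adjusted p = 9.72e-07, limma). Against somatic cells all 3 tested probe sets were called lower, and against ESCs 2 of the 3.

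*Itgb7*, whose subunit pairs with those of *Itga4* and *Itgae* in lymphocyte homing and in adhesion to E-cadherin, fell in steps. Its single probe set gave 622 and 596 in ESCs, 206 and 254 for V6.5 iPGCs, 190 and 182 for Oct4-Gfp iPGCs, 61.6 and 64.7 in V6.5 somatic cells and 87.0 and 82.8 in Oct4-Gfp somatic cells. No 2 cell types overlapped. iPGCs were below ESCs by a log2 difference of −1.50 ± 0.12 (adjusted p = 0.000207, limma) and above somatic cells by 1.33 ± 0.10 (adjusted p = 1.22e-05, limma). *Itgae*, the alpha E subunit, gave 655 and 675 in ESCs, between 523 and 930 in iPGCs and between 14.1 and 35.7 on the somatic arrays. It was higher in iPGCs than in somatic cells by 4.15 (adjusted p = 1.12e-06, limma) and differed from ESCs by 0.02 without a call (adjusted p = 0.958, limma). A second *Itgae* probe set also passed the filter, and its test result is not given here. Its signals were lower in iPGCs without overlap, with 288 and 301 for ESCs and from 104 to 228 for iPGCs. The absence of a difference from ESCs thus holds for the brighter *Itgae* probe set only. The ligand E-cadherin, *Cdh1*, averaged 7226 ± 354 over the ESC arrays, 5986 ± 410 over those of iPGCs and 491 ± 289 over the somatic ones (SD, n = 2, 4 and 4). The other alpha partner, *Itga4*, went the opposite way, with a mean of 18.0 for ESCs, 21.8 for iPGCs and 803 for the somatic arrays (difference between iPGCs and somatic cells −4.39, adjusted p = 4.81e-07, limma).

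*Itga3*, a laminin receptor subunit, was the least changed of the members called lower than in ESCs. It gave 349 and 309 in ESCs, 238 and 221 for V6.5 iPGCs, 211 and 175 for Oct4-Gfp iPGCs, 421 and 432 in V6.5 somatic cells and 309 and 404 in Oct4-Gfp somatic cells. Every iPGC array lay below every ESC and somatic array. The difference from ESCs was −0.61 ± 0.14 (adjusted p = 0.0119, limma) and within V6.5 −0.49 ± 0.17, not called (adjusted p = 0.0624, limma). The V6.5 value gained a call with quantile normalization (−0.59, adjusted p = 0.0481, limma) and with median centring (−0.57, adjusted p = 0.0470, limma). It also did so with the mean of all probe sets (−0.62, adjusted p = 0.0166, limma). The pooled call was lost without ESC replicate 1 (−0.53, adjusted p = 0.0892, limma) and with the *Gapdh* ratio as a covariate (−0.71, adjusted p = 0.231, limma). The fibroblast feeder genes, of which 12 of 12 had a probe set, summed to 1039 to 1211 for ESCs, 551 to 898 for iPGCs and 14119 to 21276 for the somatic arrays. Of 10 tested, 4 were lower and 3 higher in iPGCs than in ESCs, where 21.0% of all genes tested were lower and 24.5% higher. *Lox* was at least 8.92-fold higher in ESCs, being at background on every iPGC array. Unlike the sum of the list, *Lox* was also at background on every somatic array, at least 7.82-fold below ESCs. *Twist2*, of the same list, was above background on 0 of 2 ESC and 3 of 4 iPGC arrays. With 4 genes lower and 3 higher, neither *Lox* nor *Twist2* stands for the list. The part of the feeder genes in the lower *Itga5*, *Itgb7* and *Itga3* of iPGCs was not tested.

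**Figure D2:**
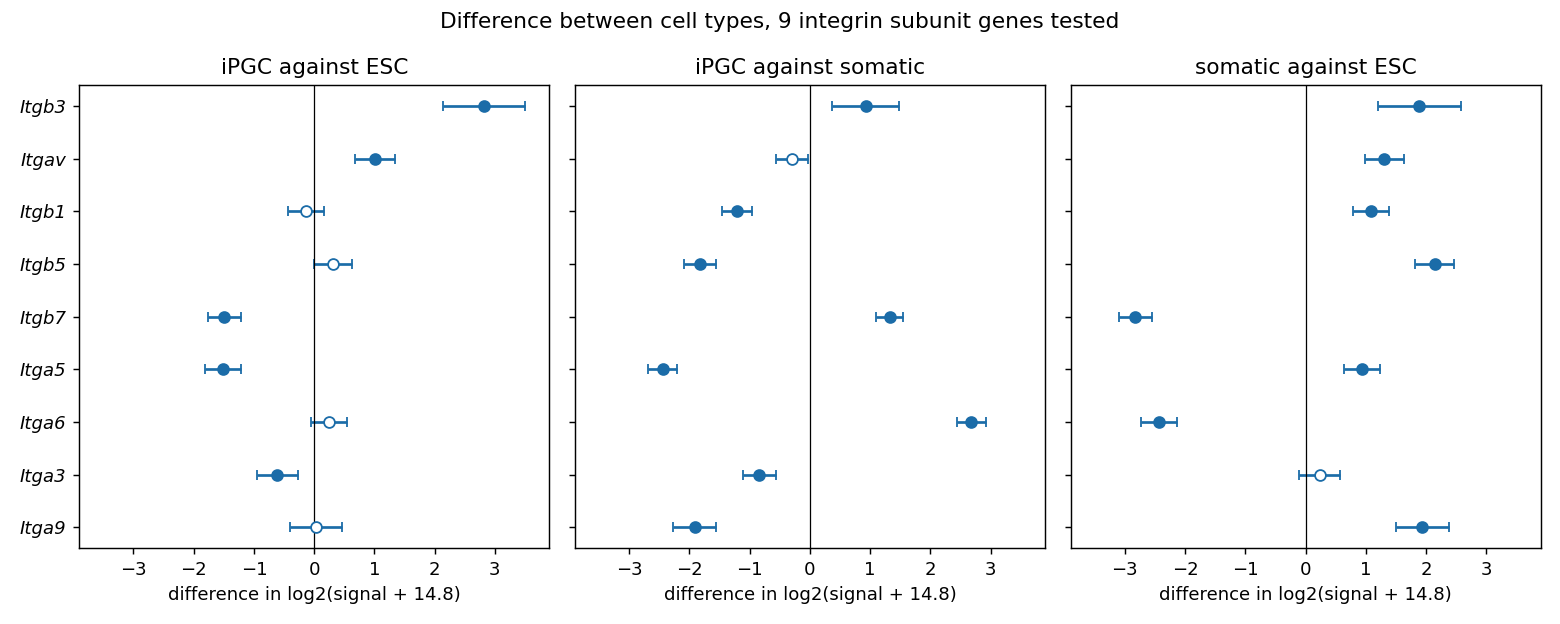
Difference in log2(signal + 14.8) for the 9 integrin genes tested, with 95% intervals from limma, in 3 comparisons of cell types; filled dots have an adjusted p under 0.05 and open dots do not. *Itgb3* is the highest against ESCs at 2.82, and *Itga6* (2.68) and *Itga5* (−2.45) are the ends of the range against somatic cells.

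Against somatic cells of the same day, 3 of 9 members were higher in iPGCs (*Itgb3*, *Itga6* and *Itgb7*) and 5 were lower (*Itgb1*, *Itgb5*, *Itga5*, *Itga3* and *Itga9*), where 33.7% of all genes tested were higher and 29.8% lower. The median difference was −0.84, beside 0.07 over all genes tested. In V6.5, 2 were higher and 6 lower (27.3% and 24.2% of all genes tested), *Itgav* joining the lower ones (−0.49 ± 0.16, adjusted p = 0.0403, limma) and losing that call without any 1 V6.5 array, and in Oct4-Gfp 3 were higher and 5 lower (25.7% and 24.8%). Somatic cells against ESCs gave 6 members higher and 2 lower (32.6% and 34.7% of all genes tested). This comparison shares its arrays with the other 2.

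*Itga6*, the alpha subunit of the laminin receptors alpha 6 beta 1 and alpha 6 beta 4, was the member with the largest excess in iPGCs over somatic cells. It gave 2876 and 2338 in ESCs, 3099 and 2730 for V6.5 iPGCs, 3155 and 3352 for Oct4-Gfp iPGCs, 284 and 314 in V6.5 somatic cells and 713 and 744 in Oct4-Gfp somatic cells. All somatic arrays lay far below the rest, while ESC and iPGC arrays overlapped. The means were 3084 ± 260 for iPGCs and 514 ± 249 for somatic cells (SD, n = 4 each), a log2 difference of 2.68 ± 0.11 (adjusted p = 6.84e-07, limma). The excess was 3.22 ± 0.15 in V6.5 and 2.14 ± 0.15 in Oct4-Gfp. The difference between the lines was −1.09 ± 0.21, with a 95% interval from −1.57 to −0.60, and was not called (adjusted p = 0.243, limma). Against ESCs the probe sets disagreed. The brighter one differed by 0.24 ± 0.13 (adjusted p = 0.164, limma) and the other was lower in iPGCs by −0.96 (adjusted p = 0.00636, limma), with 1811 and 1808 for ESCs, 1053 and 1182 for V6.5 and 779 and 752 for Oct4-Gfp iPGCs. Both were called higher in iPGCs against somatic cells. The *Gapdh* ratio given above also stepped up from ESCs to V6.5 iPGCs and again to Oct4-Gfp iPGCs, and its part in the gap between the probe sets was not tested.

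**Figure D3:**
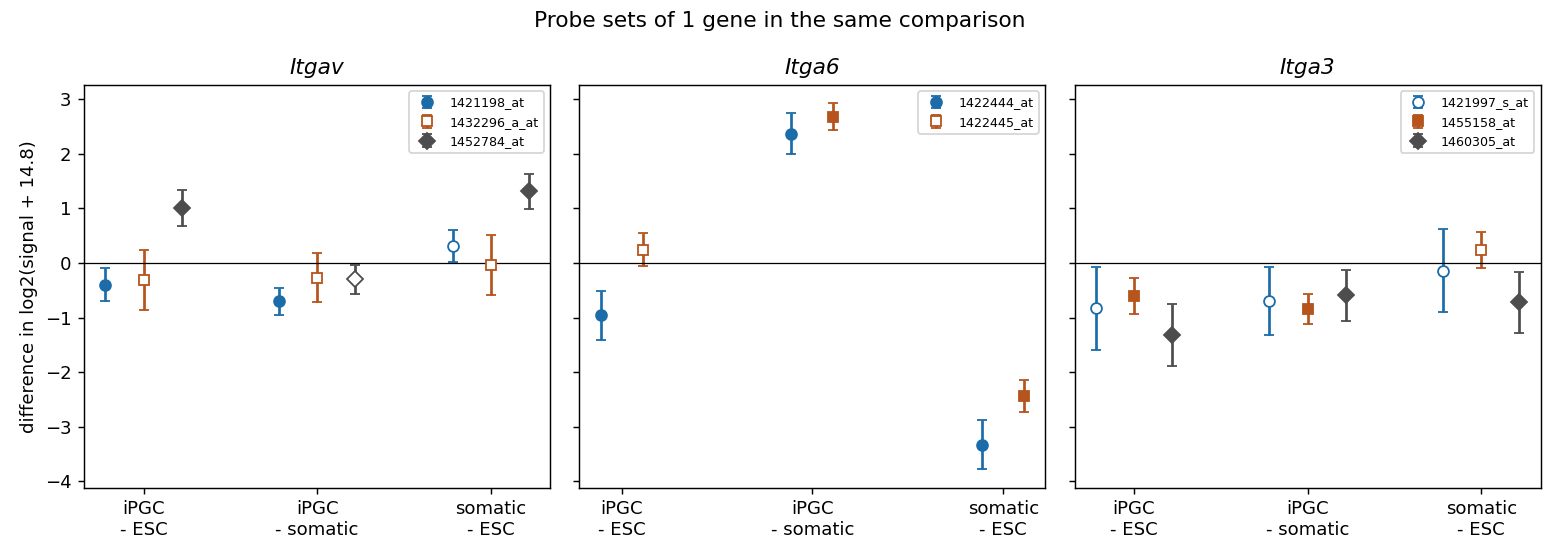
Difference in log2(signal + 14.8), with 95% intervals from limma, for each tested probe set of *Itgav*, *Itga6* and *Itga3* in 3 comparisons of cell types; filled symbols have an adjusted p under 0.05. For *Itgav* against ESCs the probe sets run from −0.40 to 1.01, for *Itga6* from −0.96 to 0.24 and for *Itga3* from −1.32 to −0.61, while for each gene they share a sign against somatic cells.

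*Itgb1*, the shared beta subunit of the laminin and fibronectin receptors, was higher in somatic cells and was not called between ESCs and iPGCs. It gave 2004 and 2025 in ESCs, 2127 and 2343 for V6.5 iPGCs, 1695 and 1347 for Oct4-Gfp iPGCs, 4798 and 5256 in V6.5 somatic cells and 3525 and 3747 in Oct4-Gfp somatic cells. Every somatic array lay above the others, and the ESC arrays fell between the iPGC lines. iPGCs differed from ESCs by −0.13 ± 0.13 (95% interval −0.43 to 0.17, adjusted p = 0.443, limma) and from somatic cells by −1.21 ± 0.11 (adjusted p = 3.19e-05, limma). Against somatic cells all 5 tested probe sets were called lower, from −1.61 to −1.15, and 0 of the 5 were called against ESCs by limma.

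*Itgb5* encodes another beta partner of alpha V. It gave 346 and 424 in ESCs, 495 and 592 for V6.5 iPGCs, 408 and 443 for Oct4-Gfp iPGCs, 1946 and 1942 in V6.5 somatic cells and 1446 and 1679 in Oct4-Gfp somatic cells. The somatic arrays stood above the rest, and the ESC and iPGC arrays overlapped. The somatic mean was 3.62 times the iPGC mean (−1.83 ± 0.11, adjusted p = 5.14e-06, limma), and iPGCs differed from ESCs by 0.32 ± 0.14 without a call (adjusted p = 0.102, limma). Of 4 tested probe sets, 4 were called lower in iPGCs against somatic cells, and 1 higher against ESCs (0.50, adjusted p = 0.0286, limma).

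*Itga9* followed the same order of cell types. It gave 194 and 133 in ESCs, 158 and 195 for V6.5 iPGCs, 130 and 183 for Oct4-Gfp iPGCs, 644 and 603 in V6.5 somatic cells and 706 and 695 in Oct4-Gfp somatic cells. ESCs and iPGCs overlapped and somatic cells stood above both. The somatic mean was 3.97 times the iPGC mean (−1.91 ± 0.15, adjusted p = 1.96e-05, limma), and iPGCs differed from ESCs by 0.03 ± 0.19 (95% interval −0.40 to 0.46, adjusted p = 0.914, limma). *Itga3* was below somatic cells by −0.84 ± 0.12 (adjusted p = 0.000444, limma). Of its 3 tested probe sets, 2 were called lower, and the other differed by −0.69 (adjusted p = 0.0568, limma). Within V6.5 only 1 of the 3 was called lower, and the differences ran from −0.85 to −0.26.

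Between the iPGC lines, 0 of 9 members were called by limma, as were 0 of all 12208 genes tested (0.0%). At an unadjusted p under 0.05, 3 members and 2440 genes passed. The 3 were *Itgav*, higher in Oct4-Gfp iPGCs by 0.66 ± 0.16 (adjusted p = 0.0977, limma), *Itgb1*, lower by −0.56 ± 0.15 (adjusted p = 0.108, limma), and *Itga5*, lower by −0.67 ± 0.15 (adjusted p = 0.0833, limma). The probe sets of *Itgav* disagreed here too, the second one differing by −0.90 (adjusted p = 0.0695, limma). With a trend in the variance (limma-trend), the brightest probe sets of *Itgav* and *Itgb1* were called (adjusted p = 0.0293 and 0.0325, limma). For the difference between lines in iPGCs against somatic cells, 0 of 9 members and 1 of all genes tested (0.00819%) were called by limma, with 2 members and 1119 genes at an unadjusted p under 0.05. These 2 members were *Itga6* (−1.09 ± 0.21, adjusted p = 0.243, limma) and *Itgb7* (−0.64 ± 0.19, adjusted p = 0.370, limma).

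Whether partners moved together was read from the log2 ratio of alpha to beta signal on each array, for 8 pairs known to form receptors. The ratio itself has no meaning across probe sets, and its difference between cell types gives the excess change of the alpha gene over the beta gene. All ratios with *Itgav* use its brightest probe set. The other tested *Itgav* probe sets differed between iPGCs and ESCs by −0.40 and −0.31, and ratios with them are not given here. For *Itgav* over *Itgb3* the ratio of iPGCs minus that of ESCs was −1.81, with every iPGC array below both ESC arrays. *Itgb3* thus changed more than this *Itgav* probe set. For *Itga2b* over *Itgb3*, with *Itga2b* near background and the ESC arrays at −1.44 and 0.63, no difference is given. The smallest two-sided exact permutation p that 4 against 2 arrays allow is 0.0667, so the comparison with ESCs has no call. Against somatic cells the *Itgav* over *Itgb3* ratio differed by −1.23, from 3.46 ± 0.70 (SD, n = 4) in somatic cells to 2.24 ± 0.57 (SD, n = 4) in iPGCs (two-sided exact permutation p = 0.0571, adjusted over 8 pairs 0.0914).

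With the other beta partners of alpha V the difference had the opposite sign. *Itgav* over *Itgb5* differed by 1.53 between iPGCs and somatic cells, from 0.69 ± 0.39 to 2.21 ± 0.59 (SD, n = 4 each, exact permutation p = 0.0286), and *Itgav* over *Itgb1* by 0.91 (exact permutation p = 0.114). Among the partners of beta 1, *Itga6* over *Itgb1* differed by 3.89 and *Itga5* over *Itgb1* by −1.23 (exact permutation p = 0.0286 each). These are the smallest p that 4 against 4 arrays allow. After adjustment over the 8 pairs they were 0.0762, and 0 of 8 pairs were called, with 3 at an unadjusted p under 0.05. A lone pair at the smallest p could not be called after this adjustment, however large its difference. The count of 0 therefore does not show that the ratios were alike. In these 3 pairs no iPGC array overlapped a somatic array. The smallest p is reached only without overlap, so this adds nothing to it.

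**Figure D4:**
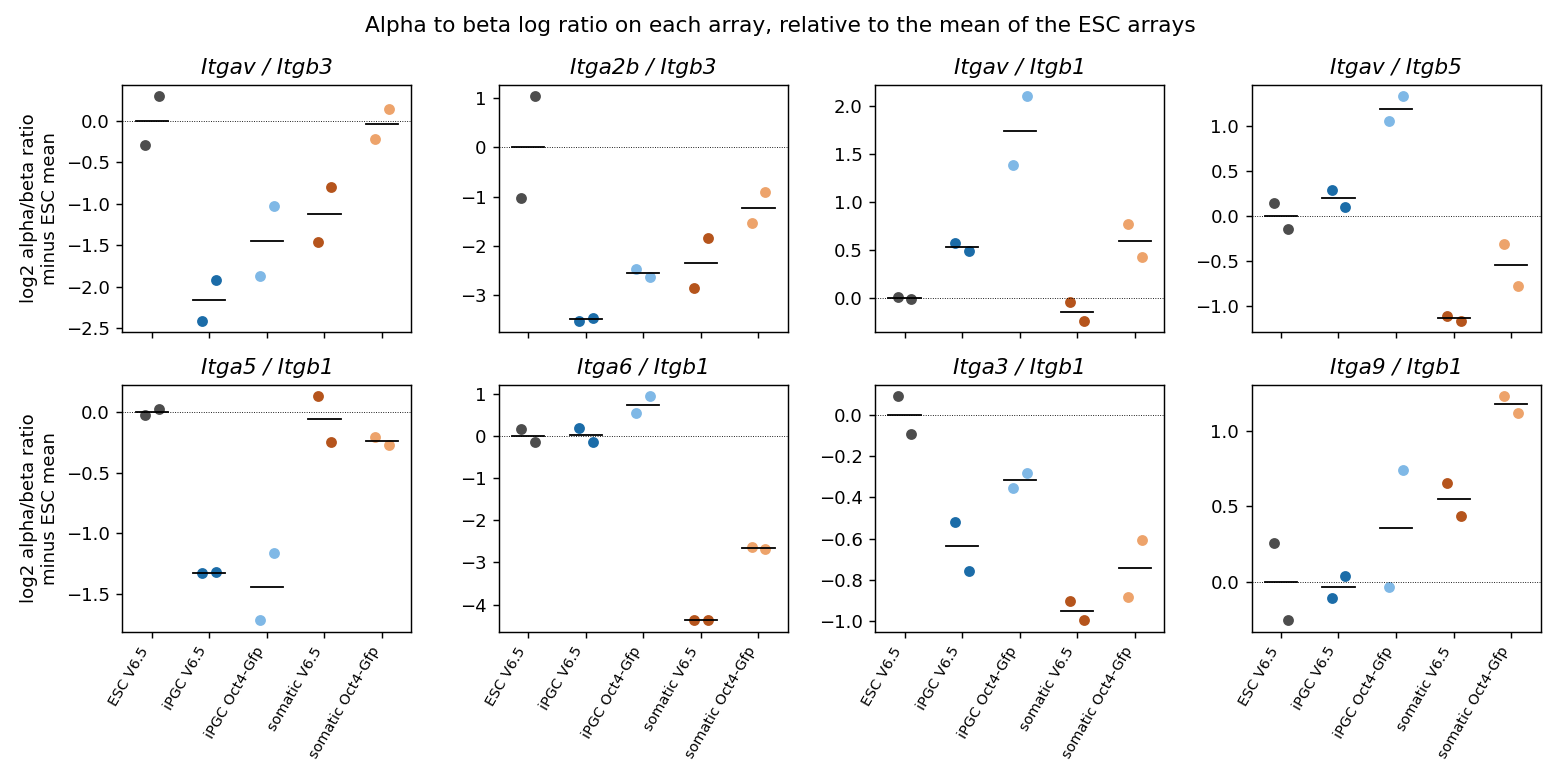
Log2 ratio of alpha to beta signal (each plus 14.8) on each array for 8 integrin pairs, minus the mean of the 2 ESC arrays; 1 dot per array and a bar at the mean of each population. *Itgav* over *Itgb3* has its lowest means in iPGCs, and *Itga6* over *Itgb1* is lowest in somatic cells. *Itgav* is shown by its brightest probe set, and its probe sets disagreed between iPGCs and ESCs.

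Of 16 other integrin subunits listed, 14 had a probe set and 5 passed the filter. *Itga1*, a collagen receptor subunit, was the only one of the 5 called between iPGCs and ESCs, higher by 1.15 (adjusted p = 0.00396, limma), with means of 34.9 ± 13.9 for ESCs, 103 ± 53.8 for iPGCs and 57.2 ± 4.47 for somatic cells (SD, n = 2, 4 and 4). The Oct4-Gfp iPGC arrays were the highest (124 and 168), and within V6.5, where iPGCs read 48.6 and 70.3, it was not called against ESCs (0.59, adjusted p = 0.103, limma) or against somatic cells (0.04, adjusted p = 0.907, limma). Against somatic cells *Itga1*, *Itgae* and *Itgal* (the alpha L subunit of leukocytes) were higher and *Itga4* and *Itga8* lower. *Itga8*, a beta 1 partner that binds nephronectin, averaged 30.0, 48.6 and 211 in ESCs, iPGCs and somatic cells. *Itgb8*, the remaining beta partner of alpha V besides that of *Itgb6*, was above background on 0 of 6 ESC and iPGC arrays and on 4 of 4 somatic arrays, where it was at least 2.49-fold higher than in iPGCs. *Itgb6* and *Itga2* were above background on no array.

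Of 27 genes for integrin activators and adaptors, the cytoplasmic proteins that switch integrins on and tie them to actin, 25 had a probe set and 24 were tested. In iPGCs 1 was higher and 17 lower than in somatic cells, with a median of −0.73, where 33.7% and 29.8% of all genes tested were higher and lower. Against ESCs 3 were higher and 4 lower, with a median of −0.03, where 24.5% and 21.0% of all genes tested were. *Parva*, an actin-binding partner of integrin-linked kinase, averaged 51.2 ± 15.1, 74.4 ± 14.5 and 2016 ± 290 over the arrays of ESCs, iPGCs and somatic cells in turn (SD, n = 2, 4 and 4). *Parvb*, its paralogue, averaged 1063, 246 and 1357, lower in iPGCs than in ESCs by −2.09 (adjusted p = 0.000647, limma). *Tns1*, a tensin, was lower than in somatic cells by −2.06 (adjusted p = 6.52e-05, limma), and *Lims2* was at background on every ESC and iPGC array and at least 8.23-fold higher in somatic cells than in iPGCs.

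Of 30 ligand genes 26 had a probe set and 21 were tested. In iPGCs 2 were higher and 9 lower than in ESCs (median −0.51), beside the same 24.5% and 21.0% of all genes tested. Against somatic cells 6 were higher and 14 lower (median −0.70), beside 33.7% and 29.8%. The collagen genes *Col1a1*, *Col4a1* and *Col4a2* averaged 362, 219 and 118 over the iPGC arrays against 6428, 3888 and 2659 over the somatic ones, and *Cdh1* was the highest of the 6 against somatic cells (3.71, adjusted p = 1.56e-05, limma). *Fn1*, the fibronectin ligand of alpha 5 beta 1 and alpha V beta 3, averaged 5451 ± 311 in ESCs and 5466 ± 454 in iPGCs, a difference of 0.00 (adjusted p = 0.993, limma). *Vtn*, vitronectin, was above background on 2 of 2 ESC, 1 of 4 iPGC and 0 of 4 somatic arrays and did not pass the filter.

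Over the 10 arrays, the genes most like *Itgb3* by Pearson r on the log2 scale were *Zfp81* (0.965), *Bcl2l11* (0.955), *Nectin3* (0.952), *Pomgnt1* (0.950) and *Lrrk2* (0.948). These r values follow the 5 populations, within which the arrays share a sort and a line, and carry no test. *Itgav* had an r of 0.59 with *Itgb3* and ranked 1569 among 12207 genes, the highest of the other members, and *Itgb7* had the lowest at −0.51.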

How the data were processed

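Transcripts of 5 sorted populations were measured on 10 Affymetrix arrays. The deposited values are signal intensities on a linear scale that the authors made with MAS5, per the labels, with a trimmed mean of 500 per array (2% left out at each end). The paper's methods name D-Chip values, which were not used here. The RNA had been amplified (NuGEN Ovation Pico) by the authors. Signals ran from 0.0142 to 30783.

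From these, 64 control probe sets were left out, 14.8 (the 25th percentile) was added and log2 was taken. A probe set was tested when its signal exceeded the array median at least 2 times over the 10 arrays, which 26372 did. R 4.3.3 with limma 3.58.1 fitted 1 model with a mean for each of the 5 groups (residual degrees of freedom 5, prior 2.92), tested on simulated data, with the Benjamini-Hochberg adjustment of p-values. A gene is represented by its brightest tested probe set. Pairs were compared by exact permutation (scipy 1.17.1). Symbols came from the platform's annotation, in which 34945 probe sets have 1 symbol, 932 several and 9211 none. Named are all 10 members, other integrin subunits, up to 4 called genes of each list with the largest change, a few others by role (chosen after their values were seen), and the 5 genes most like *Itgb3*. Members and lists were chosen with earlier results of these data known. Alternatives were other offsets, filters, scalings, groupings, variance models, a *Gapdh* ratio covariate, other choices of probe set and each array left out. Only 2 arrays per population limit the precision.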

Additional observations from a re-analysis of the deposited data

How the results depend on the processing

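Of the values for single genes and pairs under all alternatives, 1704 kept their direction and their side of the threshold, 33 lost a call, 21 gained one with the same sign, 27 changed sign (3 of them called with the other sign) and 2 ratios of pairs moved with the same sign by more than the spread. With the *Gapdh* ratio as a covariate, and with the mean of all probe sets, 1 member was higher in iPGCs than in ESCs, both over all arrays and within V6.5, in place of 2. With that covariate 2 members were lower than in ESCs over all arrays, in place of 3. Within V6.5 the *Itgav* difference between iPGCs and ESCs ran from 0.65 to 0.71 as each V6.5 array of these 2 populations was left out. With limma-trend 1 member was higher and 1 lower in Oct4-Gfp than in V6.5 iPGCs, in place of 0. The *Itgb3* rise over ESCs kept its call under every alternative run, all on the only *Itgb3* probe set that passed the filter. Other choices of probe set therefore could not change it. The second *Itgb3* probe set, around the background and fitted without the filter, differed by 0.46 without a call (adjusted p = 0.420, limma).

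Changes of sign were seen only for values without a call in the main model. For iPGCs against ESCs, *Itgb1* became 0.15 with V6.5 arrays only and 0.073 with the probe set of largest spread. *Itga6* became −0.36 with the mean of probe sets and −0.96 with that of largest spread, both called (adjusted p = 0.0457 and 0.00636, limma), and −0.26 and −0.69 within V6.5. *Itga9* became −0.36 with the *Gapdh* covariate, −0.22 with the mean and −0.56 with the largest spread, ranging from −0.22 to 0.28 as arrays were left out, and within V6.5 −0.065, −0.13 and −0.60, ranging from −0.13 to 0.36. *Itga3* in somatic cells against ESCs became −0.21 with the mean and a called −0.72 with the largest spread (adjusted p = 0.0316, limma). With the largest spread the ratio of *Itga6* to *Itgb1* for iPGCs against ESCs went from 0.38 to −1.03 and that of *Itga9* to *Itgb1* from 0.16 to −0.63, the latter also turning without ESC replicate 2 or Oct4-Gfp iPGC replicate 2. *Itgav* in Oct4-Gfp iPGCs against somatic cells became 0.15 with median centring and ranged from −0.31 to 0.085 as arrays were left out, and between the iPGC lines it became −0.29 with the mean of probe sets. The causes were not tested.

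Median centring moved all differences between iPGCs and somatic cells by 0.18, and by 0.26 within Oct4-Gfp. Replicate numbers were not shown to pair arrays, since same-numbered arrays of 10 pairs of groups deviated with r from −0.29 to 0.26, 2 of them above 0.1. With a replicate block, 2 members stayed the count higher and 3 the count lower for iPGCs against ESCs, and within V6.5 3 were higher than in ESCs (*Itgb5* added, 0.48, adjusted p = 0.0441, limma) and 3 higher than in somatic cells (*Itgb3* added, 0.55, adjusted p = 0.0178, limma), while *Itgav* lost its lower call (adjusted p = 0.0604, limma). Signals near background limit *Itga2b* and the second *Itgb3* probe set, and 2 arrays per group limit every line comparison.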
